A study of Homo sapiens with 12 samples.

Results

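Human miRNAs are numbered roughly in the order in which they were registered, so high numbers mark entries annotated late, most of them from deep sequencing reads. The miRNAs described here carry a number of 3000 or more and were detected in HEK293T, an established line of human embryonic kidney origin with the large T antigen of SV40. They were chosen by their names and by a sum of at least 60 raw counts over the 6 libraries of run 2, and 48 of the 2588 entries of the table met the rule. The rule left out 11 entries whose numbers it named, 6 of which reached the sum. Of the 1442 entries numbered 3000 or more, 450 had run 2 sums of 1 to 59 and 933 had a sum of 0. Just outside the rule lay miR-3158-5p with a sum of 57, and miR-4446-3p and miR-6500-3p with sums of 59. Just inside lay miR-3944-3p with 63, miR-4473 with 68 and miR-4511 with 70.

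The study sequenced small RNA to find the mature miRNAs that are removed by Tudor-SN, a nuclease encoded by SND1. HEK293T cells were transfected with Tudor-SN siRNA or with a control siRNA (Ctl), and there were 3 libraries of each in run 1 and 3 of each in run 2. Run 1 used RNA enriched for molecules shorter than 200 nt, gel-purified libraries and a NextSeq sequencer. Run 2 used total RNA, Pippin Prep size selection and a HiSeq sequencer, so run and protocol cannot be told apart. The labels give no genetic change other than the cell line's own and no time after transfection, and they do not say whether replicates were separate cultures. P-values below therefore reflect the spread between libraries alone, and that spread may be technical. The tables count miRNAs, so the level of Tudor-SN itself was not analysed here.

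A mature miRNA is a short RNA cut by Dicer from the stem of a hairpin. It guides an Argonaute protein to target transcripts, mainly through its seed, bases 2 to 8. Either arm of the hairpin can be loaded, and the name then carries 5p or 3p. Tudor-SN is found in RNA-induced silencing complexes, and in Tudor-SN-mediated miRNA decay (TumiD) it cuts mature miRNAs at CA and UA dinucleotides away from their ends. Late annotated entries are often rare, lie in introns or exons of other genes, or read the opposite strand of an older miRNA. Some cover fragments of other RNA.

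RefSeq (GRCh38.p14) gave a mature sequence for 44 of the 48 members. The sequences below are a selection of members with large counts or that passed the test between siRNAs, with the seed in capitals, so that their seeds and base composition can be compared. Of these, miR-3605-3p passed only close to the threshold.
miR-7974: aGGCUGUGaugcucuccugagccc
miR-7706: uGAAGCGCcugugcucugccgaga
miR-4634: cGGCGCGAccggcccgggg
miR-4485-3p: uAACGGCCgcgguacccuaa
miR-7977: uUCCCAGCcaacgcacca
miR-4677-3p: uCUGUGAGaccaaagaacuacu
miR-3158-3p: aAGGGCUUccucucugcaggac
miR-3662: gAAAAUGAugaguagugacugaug
miR-4787-3p: gAUGCGCCgcccacugccccgcgc
miR-3615: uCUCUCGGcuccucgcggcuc
miR-3605-3p: cCUCCGUGuuaccuguccucuag
The 44 sequences held 44 different seeds, so no seed was shared between members. The seed of miR-3184-5p was also that of miR-423-5p, the seed of miR-3661 that of miR-631, and the seed of miR-3679-5p that of miR-1185-5p. Mature length ran from 18 to 24 nt, and 4 of the 44 were shorter than 20 nt.

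A second set of sequences is shown because these members are read from the opposite strand of an older miRNA. Capitals mark the run that is the exact reverse complement of the partner.
miR-3184-3p: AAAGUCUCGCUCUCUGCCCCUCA
miR-423-5p: UGAGGGGCAGAGAGCGAGACUUU
miR-3184-5p: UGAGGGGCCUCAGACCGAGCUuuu
miR-423-3p: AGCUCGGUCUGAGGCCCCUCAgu
miR-3065-5p: uCAACAAAAUCACUGAUGCUGGA
miR-338-3p: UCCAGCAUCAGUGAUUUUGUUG
miR-3065-3p: UCAGCACCAGGAUAUUGUUggag
miR-338-5p: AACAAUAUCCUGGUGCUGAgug
miR-3184-3p and miR-423-5p cover the same bases, chr17:30117095-30117117 in GRCh38.p14, on the minus and the plus strand, and all 23 nt pair. The complementary run was 21 nt for miR-3184-5p and miR-423-3p, 22 nt for miR-3065-5p and miR-338-3p, and 19 nt for miR-3065-3p and miR-338-5p. It was 20 nt for miR-3074-5p and miR-24-3p. It was also 20 nt for miR-3158-3p and miR-3158-5p, whose hairpins MIR3158-1 and MIR3158-2 lie on opposite strands of chromosome 10. Whether the authors' counting used strand is not given in the sources used here, so reads of a member and of its partner cannot be told apart. No member shared 14 or more bases with another mature miRNA on the same strand.

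Counts assigned to miRNAs ranged from 222452 to 270191 in the run 1 controls and from 658568 to 1092713 in the run 1 Tudor-SN libraries. In run 2 they ranged from 927727 to 1653077 and from 1710708 to 3140214, so every Tudor-SN library was deeper than every control of its run. Levels by library are given in CPM after TMM scaling, each count relative to its library's total times a factor that TMM sets. Floors, and control levels pooled to compare the runs, are in plain CPM without TMM. With 0 counts up to 3 remain possible, a floor of 2.75 to 13.5 CPM over the run 1 libraries and of 0.955 to 3.23 CPM over those of run 2. Such floors hold for counting error alone, since PCR copies cannot be told from separate molecules here. Replicates differed by more than counting noise in every pair. Run 2 Tudor-SN replicate 3 stood apart from its group, with a chi-square per degree of freedom of 34.9 and 20.6 against replicates 1 and 2, where the other pairs of the series lay between 2.31 and 8.68. Of the markers checked, miR-10a-5p, miR-10b-5p and miR-92a-3p were abundant in all 12 libraries, while miR-206, miR-142-3p, miR-223-3p, miR-144-3p and miR-367-3p had no count. The other markers taken for this line were lower. In the run 1 controls miR-17-5p had 41, 49 and 29 counts, miR-20a-5p 126, 91 and 65, and miR-196a-5p 542, 545 and 480. In the run 2 controls they had 2970, 5272 and 3398, then 6154, 10339 and 6619, and 706, 1437 and 994. Counts of the muscle miRNA miR-1-3p were 5, 2 and 1 in the controls of run 1 and 105, 71 and 51 in its Tudor-SN libraries. The endothelial marker miR-126-3p moved the same way in run 1, with 18, 19 and 10 counts against 203, 134 and 139. In run 2 miR-126-3p had 53, 84 and 59 against 390, 320 and 205 counts, and miR-133a-3p of muscle had 0, 0 and 1 against 23, 11 and 16. Of the 12 markers of other cells, 5 had no count, 4 had at most 2 in a library, and the other 3 are those given. Their part in the members' values was not tested.

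The 48 members held a small share of all miRNA counts. In run 2 the share was 0.715% ± 0.00656 in the controls and 0.586% ± 0.0224 with Tudor-SN siRNA (SD, n = 3). In run 1 it was 0.173% ± 0.00982 and 0.132% ± 0.0113. Most of the run 2 counts came from miR-7974, miR-3184-3p and miR-7706, which made up 67.2% of the members' 71798 counts. Without miR-7974 the run 2 shares were 0.490% ± 0.00377 and 0.470% ± 0.0251, which is a difference within the spread of the Tudor-SN libraries. In run 1 they were 0.155% ± 0.0124 and 0.119% ± 0.0113, with no overlap. Without the 3 largest members the run 2 shares were 0.237% ± 0.0114 and 0.187% ± 0.0205, again with no overlap. The median member had a run 2 sum of 182, and 27 of the 48 had a sum under 200. The run 2 sum depends on the siRNA groups in depth, but 46 of the 48 members would also pass at the level of either group alone. The exceptions were miR-5787, which would not pass at its Tudor-SN level, and miR-3944-3p, which would not pass at its control level.

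**Figure D1:**
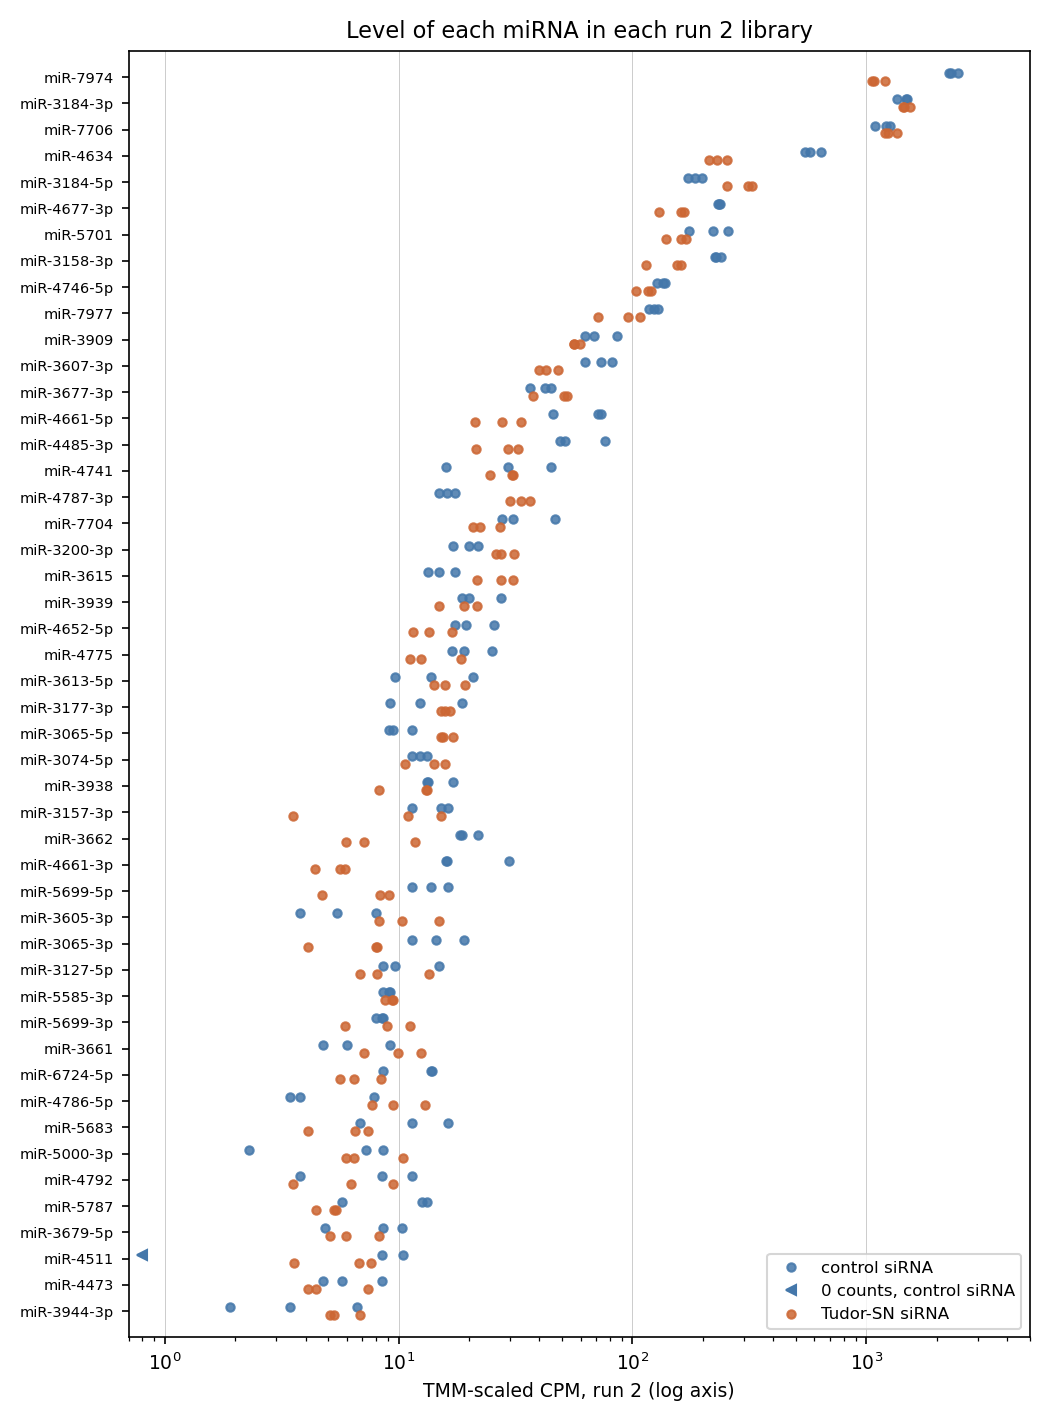
Level of each of the 48 miRNAs in the 6 run 2 libraries, in TMM-scaled CPM on a log axis, with blue points for control siRNA and orange points for Tudor-SN siRNA; the triangle marks a library with 0 counts. miR-7974, miR-3184-3p and miR-7706 lie above the other members in the controls, at 1089 CPM or more, and the blue and orange points of miR-7974 and miR-4634 do not overlap.

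In run 2, 16 members fell and 5 rose with Tudor-SN siRNA, out of 45 that passed the filter on low counts, and the other 24 did not pass the test (edgeR quasi-likelihood test, Benjamini-Hochberg adjusted p under 0.05). Over all 383 entries tested, 26.9% were lower and 24% higher. The members' shares were 35.6% lower and 11.1% higher, and their median log2 fold change was -0.26 against -0.02 over all entries. In run 1, 5 members fell and 1 rose out of 12 tested, against 22.8% lower and 21.4% higher among 224 entries. The groups did not overlap for 8 of these 12 members and for 52.7% of the 224 entries. The run 1 median was -0.45 for the members and -0.05 over all entries. The run 1 test had 896 degrees of freedom, since it pooled the spread over all entries, and the run 2 test had 15.9. Adjusted p-values of run 1 and run 2 therefore cannot be ranked against each other. TMM scaling centres the bulk of miRNAs near no change, so higher and lower are relative to the other miRNAs. In RNA from whole cultures, fewer cells with a miRNA and less of it per cell cannot be told apart.

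The members that fell in both runs were miR-4634, miR-4485-3p, miR-4661-5p, miR-7974 and miR-7977, which is 5 of the 12 tested in both. No member rose in both with TMM scaling and the filter, and 10 of the 12 had the same sign in both runs. Among all 199 entries tested in both runs, 31 fell in both, 34 rose in both and 75.9% had the same sign.

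miR-4634, whose 19-nt sequence is 94.7% G and C, lies in an intron of the lincRNA AC113346.2 on chromosome 5. Its run 2 levels were 577, 545 and 640 CPM in the controls and 211, 253 and 230 CPM with Tudor-SN siRNA. In run 1 they were 181, 207 and 267 CPM against 50.9, 88.6 and 74.5 CPM. The groups did not overlap in either run. The log2 fold change was -1.34 (SE 0.09, adjusted p = 5.3e-09 by edgeR) in run 2 and -1.63 (SE 0.21, adjusted p = 7.2e-13) in run 1, and the call held under every alternative run.

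miR-7974 had the largest count of all members. It lies in an intron of ZNF653 on chromosome 19 (chr19:11495544-11495567, minus strand). Its run 2 levels were 2469, 2247 and 2294 CPM in the controls and 1082, 1056 and 1199 CPM with Tudor-SN siRNA. The log2 fold change was -1.07 (SE 0.06, adjusted p = 1.5e-09 by edgeR), and the call held under every alternative run. In run 1 its level was 185, 148 and 206 CPM against 104, 142 and 136 CPM, so the groups did not overlap but lay close. The run 1 log2 fold change was -0.50 (SE 0.20, adjusted p = 0.031 by edgeR). That call ended with no filter on low counts, with DESeq2, and without control replicate 1, control replicate 3 or Tudor-SN replicate 1 (log2 fold change -0.47 to -0.38 over these libraries, adjusted p = 0.10 to 0.22).

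miR-4485-3p matches, over its whole length, the mitochondrial ribosomal RNA gene MT-RNR2 and its nuclear copies MTRNR2L8 and MTRNR2L12. Its annotated place is an exon of MTRNR2L8 on chromosome 11, and reads from these sources cannot be told apart. In run 1 it had 129, 196 and 183 CPM in the controls and 42.9, 79.6 and 52.1 CPM with Tudor-SN siRNA, with no overlap. Its log2 fold change was -1.56 (SE 0.23, adjusted p = 3.5e-10 by edgeR). In run 2 the levels were lower, at 51.5, 48.9 and 76.0 CPM against 21.4, 29.4 and 32.3 CPM. The log2 fold change in run 2 was -1.10 (SE 0.21, adjusted p = 0.00031 by edgeR), and the calls of both runs held under every alternative run.

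Both arms of miR-4661 were members. The 5p arm had 36.3, 36.9 and 60.9 CPM in the run 1 controls and 8.04, 14.1 and 16.4 CPM with Tudor-SN siRNA. In run 2 it had 45.8, 71.2 and 73.1 CPM against 33.2, 27.7 and 21.1 CPM. Neither run showed overlap. The log2 fold changes were -1.82 (SE 0.49, adjusted p = 0.00073 by edgeR) and -1.20 (SE 0.20, adjusted p = 9.4e-05). The 3p arm fell by 2.05 on the log2 scale in run 2 (SE 0.32, adjusted p = 5.2e-05 by edgeR), from 16, 29.6 and 16.1 CPM to 5.63, 4.39 and 5.87 CPM. In run 1 it did not pass the filter on low counts, with 2, 1 and 1 counts in the controls and none in the Tudor-SN libraries.

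miR-7977, an 18-nt entry outside annotated genes on chromosome 3, had 286, 399 and 234 CPM in the run 1 controls and 217, 205 and 130 CPM with Tudor-SN siRNA. Its run 2 levels were 128, 118 and 123 CPM against 95.5, 107 and 71.0 CPM. The groups did not overlap in either run, but in both runs the call rested on few libraries. The run 1 log2 fold change was -0.73 (SE 0.17, adjusted p = 8.0e-05 by edgeR) and became -0.48 (adjusted p = 0.065) without control replicate 2. The run 2 log2 fold change was -0.41 (SE 0.14, adjusted p = 0.025 by edgeR). It no longer passed without control replicate 1 (-0.39) or without Tudor-SN replicate 3 (-0.27), which stood apart from its group. It also did not pass with library size alone (-0.30, adjusted p = 0.12), with no filter on low counts (-0.28, adjusted p = 0.16), in 1 fit over 12 libraries (-0.29, adjusted p = 0.18) or with DESeq2 (-0.33, adjusted p = 0.16), so the call held in 7 of 13 alternatives.

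Among the other decreases of run 2, miR-4677-3p, from an intron of SDCCAG8, had 236, 234 and 232 CPM in the controls and 166, 161 and 130 CPM with Tudor-SN siRNA. miR-3158-3p, from an intron of DPCD, had 227, 239 and 226 CPM against 155, 161 and 114 CPM. Control values of both were tight and lay above every Tudor-SN value. The log2 fold changes were -0.60 (SE 0.11, adjusted p = 0.00016 by edgeR) for miR-4677-3p and -0.67 (SE 0.12, adjusted p = 0.00019) for miR-3158-3p. In run 1, the log2 fold change of miR-4677-3p was -0.29 (SE 0.25, adjusted p = 0.41 by edgeR), and the difference between the runs was -0.27 (SE 0.26, adjusted p = 0.55). miR-3662, from an intron of HBS1L, had 18.3, 18.7 and 21.8 CPM in the run 2 controls and 5.93, 7.09 and 11.7 CPM with Tudor-SN siRNA. Its log2 fold change was -1.34 (SE 0.29, adjusted p = 0.0011 by edgeR). miR-3607-3p had 62.9, 73.6 and 81.7 CPM against 42.7, 39.8 and 48.1 CPM. Its log2 fold change was -0.76 (SE 0.15, adjusted p = 0.00048 by edgeR). The calls of these 4 miRNAs held under every alternative run.

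The remaining decreases of run 2 were smaller or closer to the threshold. miR-5701, an entry with 3 hairpins outside annotated genes on chromosome 15, had 222, 256 and 175 CPM against 170, 161 and 139 CPM, and its log2 fold change was -0.48 (SE 0.13, adjusted p = 0.0052 by edgeR). It lost its call in 1 fit over 12 libraries (-0.35, adjusted p = 0.11). miR-3065-3p fell by 1.07, miR-5683 by 0.97, miR-5699-5p by 0.86, miR-6724-5p by 0.83 and miR-7704 by 0.55 on the log2 scale (adjusted p = 0.0095 to 0.047 by edgeR). miR-5683 lies within F13A1 on the opposite strand, and its groups overlapped, with 6.86, 16.3 and 11.4 CPM against 6.52, 7.42 and 4.11 CPM. miR-7704 overlaps an exon of HOXD1, and its groups lay close, with 30.9, 27.8 and 46.5 CPM against 20.8, 27 and 22.3 CPM. Its call held in 2 of 13 alternatives, and it ended with each other scaling, with no filter, with the replicate block, in 1 fit over 12 libraries and with DESeq2 (-0.53 to -0.43, adjusted p = 0.054 to 0.25 by edgeR or DESeq2). miR-6724-5p was the only member from the block of numbers annotated mostly from short introns, but its hairpins lay outside annotated genes on chromosome 21.

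The 5 increases of run 2 were in members of low to moderate level. miR-4787-3p, annotated outside genes on chromosome 3, had 14.9, 17.5 and 16.1 CPM in the controls and 36.5, 33.4 and 29.9 CPM with Tudor-SN siRNA. Its log2 fold change was 1.03 (SE 0.21, adjusted p = 0.00056 by edgeR). miR-3615, which overlaps an exon of SLC9A3R1, a scaffold protein gene, had 14.9, 17.5 and 13.3 CPM against 27.3, 30.7 and 21.7 CPM. Its log2 fold change was 0.80 (SE 0.23, adjusted p = 0.0096 by edgeR). Neither had overlap, and both calls held under every alternative run. miR-3605-3p, from an intron of the Polycomb gene PHC2, had 8.01, 5.43 and 3.80 CPM against 10.4, 14.8 and 8.22 CPM, and its log2 fold change was 1.03 (SE 0.37, adjusted p = 0.029 by edgeR). Its groups nearly touched, and it had no count in run 1. The other increases were those of miR-3184-5p and miR-3065-5p, both antisense to older miRNAs.

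miR-7706, which overlaps an exon of AKAP13 on chromosome 15, was the only member to rise in run 1. Its run 1 levels were 254, 296 and 258 CPM in the controls and 353, 459 and 372 CPM with Tudor-SN siRNA, with no overlap. The log2 fold change was 0.55 (SE 0.16, adjusted p = 0.0026 by edgeR). It became 0.37 (adjusted p = 0.085) without Tudor-SN replicate 2, and 0.35 (adjusted p = 0.094) with upper quartile scaling. In run 2 it had 1259, 1089 and 1212 CPM against 1201, 1236 and 1349 CPM, which overlapped, and its log2 fold change was 0.09 (SE 0.07, adjusted p = 0.29 by edgeR). With library size alone it passed as higher in both runs, at 0.57 (adjusted p = 0.0031) in run 1 and 0.20 (adjusted p = 0.020) in run 2. With no filter on low counts it also passed in both, at 0.74 (adjusted p = 8.7e-05) and 0.22 (adjusted p = 0.033).

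**Figure D2:**
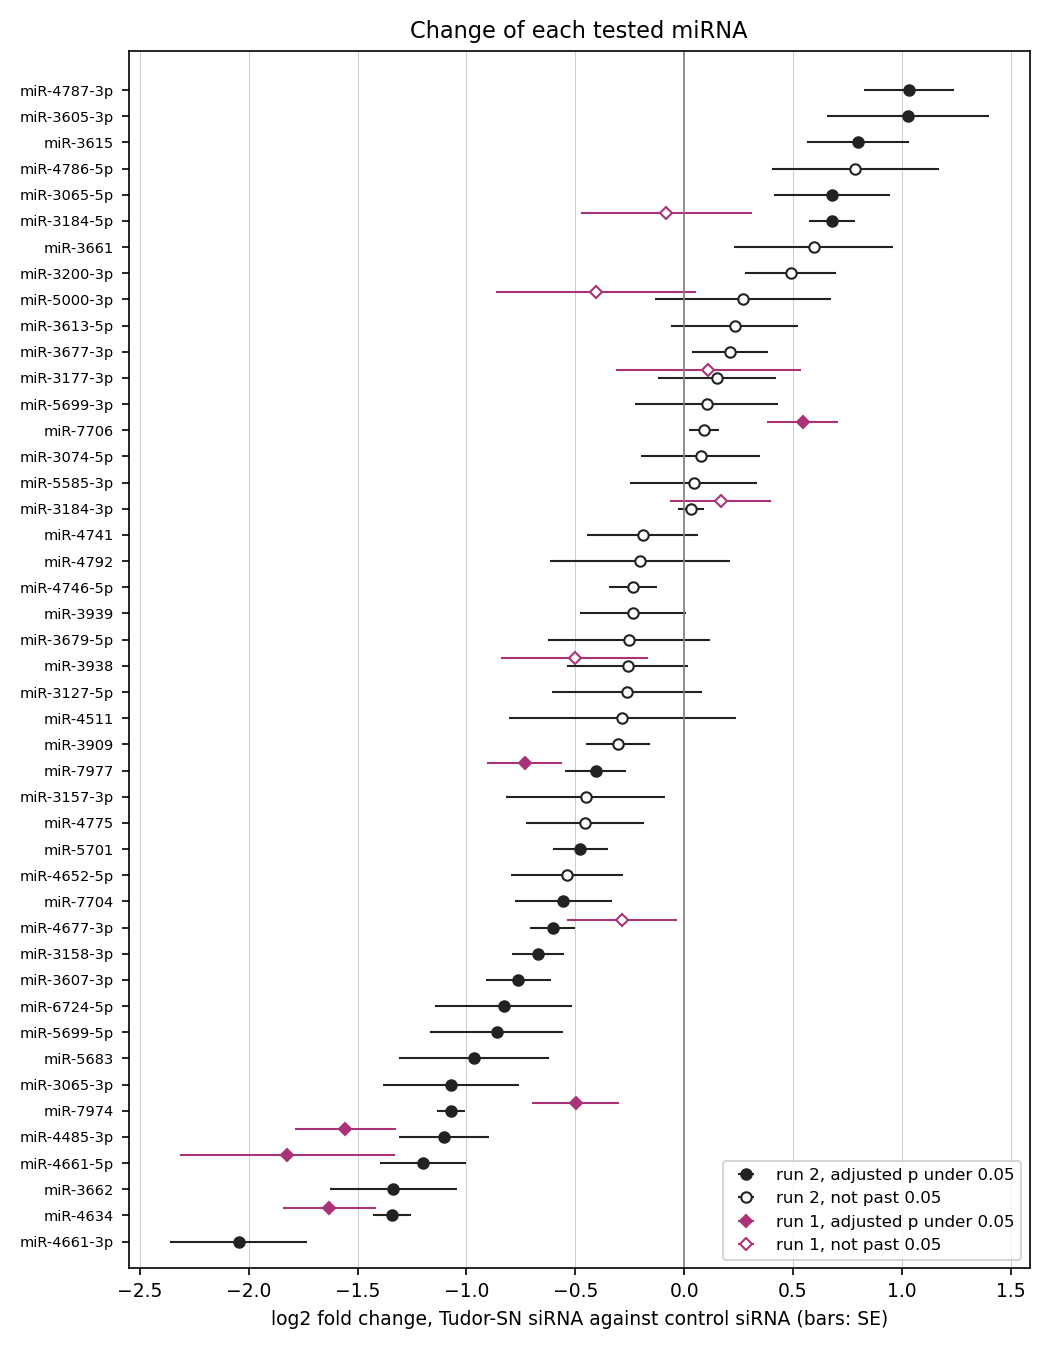
Log2 fold change of Tudor-SN siRNA against control siRNA for the 45 miRNAs tested in run 2 (black circles) and the 12 of them tested in run 1 (purple diamonds), with bars of 1 SE; filled symbols passed an adjusted p of 0.05. miR-4634, miR-4661-5p, miR-4485-3p, miR-7974 and miR-7977 have filled symbols left of 0 in both runs, and miR-7706 has a filled symbol in run 1 only.

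Leaving out a library ended the call of 8 of the 21 members in run 2. miR-3065-5p lost it without any of the 6 libraries (log2 fold change 0.60 to 0.76, adjusted p = 0.062 to 0.20). miR-6724-5p lost it without control replicate 1 or 2 or Tudor-SN replicate 1 or 3 (-0.80 to -0.66, adjusted p = 0.082 to 0.23). miR-7704 lost it without control replicate 1 or 3 or Tudor-SN replicate 1 or 3 (-0.61 to -0.30, adjusted p = 0.067 to 0.35). miR-5683 lost it without control replicate 2 or Tudor-SN replicate 1 or 3 (-0.996 to -0.56, adjusted p = 0.057 to 0.35). miR-5699-5p lost it without control replicate 1 or 2 or Tudor-SN replicate 3 (-0.88 to -0.68, adjusted p = 0.067 to 0.20). miR-3605-3p lost it without control replicate 2 or 3 or Tudor-SN replicate 2 (0.77 to 0.999, adjusted p = 0.095 to 0.14). miR-3065-3p lost it without control replicate 3 (-0.89, adjusted p = 0.050), and miR-7977 as given above. Without Tudor-SN replicate 3, the library that stood apart, 12 members were lower and 4 higher. Over all 410 entries then tested, 96 were lower and 83 higher. With the library size alone in place of TMM, 11 members were lower and 7 higher in run 2. All 383 entries moved as well, from 103 lower and 92 higher with TMM to 78 lower and 103 higher.

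The 24 members that did not pass in run 2 had log2 fold changes from -0.54 to 0.79. miR-3184-3p, the member with the second largest count, had 1496, 1348 and 1474 CPM in the controls and 1535, 1429 and 1445 CPM with Tudor-SN siRNA. Its groups overlapped, and its log2 fold change was 0.03 (SE 0.06, adjusted p = 0.68 by edgeR). miR-4746-5p, on the opposite strand of an exon of UBXN6, had 137, 135 and 127 CPM against 104, 119 and 117 CPM. Its groups did not overlap, but its log2 fold change of -0.23 (SE 0.11) did not pass (adjusted p = 0.091 by edgeR). miR-3909 likewise had 85.8, 62.8 and 68.4 CPM against 56.3, 59.7 and 56.4 CPM with no overlap, and its log2 fold change was -0.30 (SE 0.15, adjusted p = 0.098 by edgeR). The groups did not overlap for 25 of the 45 members and for 59% of all tested entries. miR-3944-3p, miR-4473 and miR-5787 were too rare to be tested in run 2. Their levels were 3.99 ± 2.42 against 5.72 ± 0.957 CPM, 6.31 ± 1.92 against 5.33 ± 1.82 CPM and 10.5 ± 4.19 against 5.04 ± 0.519 CPM (SD, n = 3), and those of miR-3944-3p and miR-4473 overlapped.

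The remaining members that did not pass were miR-5585-3p, miR-4652-5p, miR-3938, miR-5000-3p, miR-3177-3p, miR-3613-5p, miR-3127-5p, miR-3074-5p, miR-3157-3p, miR-3200-3p, miR-3661, miR-3677-3p, miR-3679-5p, miR-3939, miR-4511, miR-4741, miR-4775, miR-4792, miR-5699-3p and miR-4786-5p. Their SEs were mostly wide. miR-4652-5p had a log2 fold change of -0.54 (SE 0.26) and miR-3200-3p of 0.49 (SE 0.21). For miR-4511 the value was -0.28 (SE 0.52), with 0, 14 and 11 counts in the run 2 controls. In run 1, the tested members that did not pass were miR-3184-3p, miR-3184-5p, miR-3938, miR-4677-3p, miR-5000-3p and miR-3177-3p, with log2 fold changes from -0.50 to 0.17.

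Of the 6 members read antisense to an older miRNA or to their own hairpin's copy, 2 rose, 2 fell and 2 did not pass in run 2. Over all 383 entries tested, 24% rose and 26.9% fell. The counts of miR-3184-3p followed those of miR-423-5p almost 1 to 1 in run 2. In run 2 its counts were 1308, 2233 and 1552 in the controls and 5177, 4235 and 2461 with Tudor-SN siRNA, and those of miR-423-5p were 1359, 2200 and 1646, and 5255, 4365 and 2289. As a percentage of the partner this was 97.3% ± 3.73 in the controls and 101% ± 5.68 with Tudor-SN siRNA (SD, n = 3). In run 1 it was 76.4% ± 11.4, from only 17 to 30 counts a library, and 98.9% ± 7.56. These run 1 ratios did not overlap, at 65.4% to 88.2% against 91.5% to 107%, while those of run 2 did. A two-sided exact permutation test of 3 against 3 gave 0.1 in run 1, the smallest p it can give, and 0.5 in run 2. Neither miRNA changed past the threshold, and miR-423-5p had log2 fold changes of -0.18 (SE 0.22) in run 1 and -0.02 (SE 0.07) in run 2.

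miR-3184-5p did not stand near 1 to 1 with its partner in either run. In run 2 it had 173, 186 and 198 CPM in the controls and 313, 324 and 253 CPM with Tudor-SN siRNA, with no overlap. Its log2 fold change was 0.68 (SE 0.10, adjusted p = 5.2e-05 by edgeR) and the call held under every alternative run. The log2 fold change of its partner miR-423-3p was 0.03 (SE 0.06, adjusted p = 0.70 by edgeR). The count of miR-3184-5p was 5.93% ± 0.623 of that of miR-423-3p in the run 2 controls and 9.29% ± 1.36 with Tudor-SN siRNA. In run 1 the order was the other way, with 5.67% ± 1.29 in the controls and 3.85% ± 0.513 with Tudor-SN siRNA. In run 1 the log2 fold change of miR-3184-5p was -0.08 (SE 0.39, adjusted p = 0.89 by edgeR), while miR-423-3p rose by 0.45 (SE 0.14, adjusted p = 0.0026). The difference between runs for miR-3184-5p was 0.82 (SE 0.36, adjusted p = 0.15 by edgeR) and did not pass. The ratio groups did not overlap in either run, and a two-sided exact permutation test of 3 against 3 gave 0.1, the smallest p it can give.

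**Figure D3:**
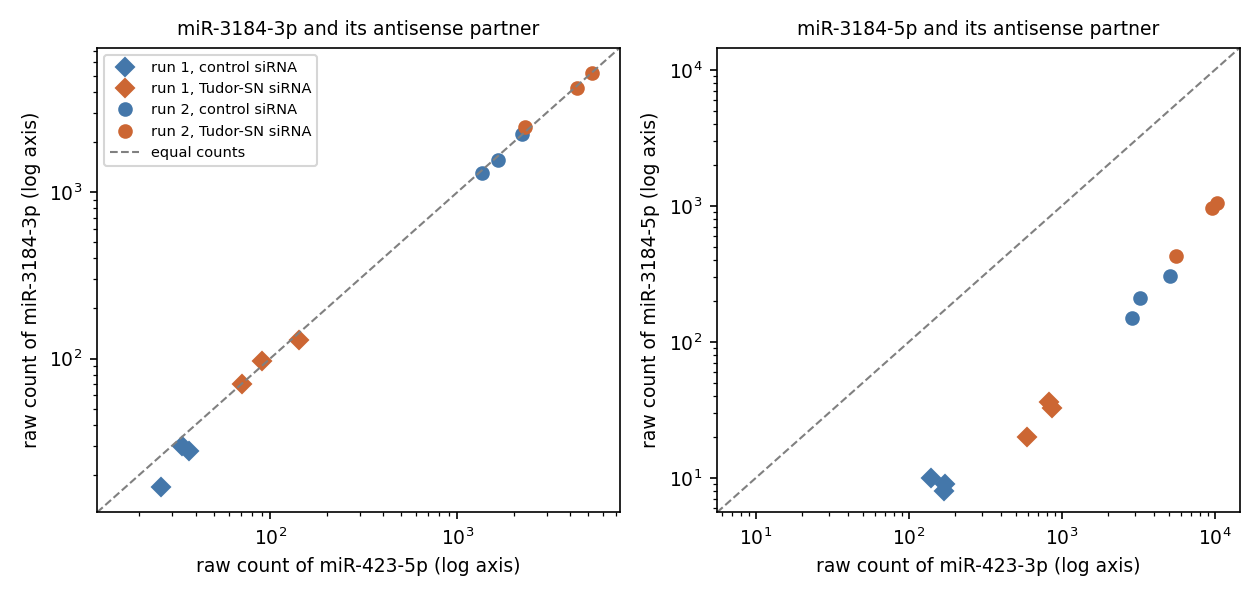
Raw counts of miR-3184-3p against miR-423-5p (left) and of miR-3184-5p against miR-423-3p (right) in the 12 libraries, on log axes, with diamonds for run 1 and circles for run 2; the dashed line marks equal counts. The run 2 points of miR-3184-3p lie on the line, at 94.3% to 108% of the partner, while those of miR-3184-5p lie below it at 5.24% to 10.2%.

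The other antisense members were rarer. miR-3065-5p rose by 0.68 on the log2 scale in run 2 (SE 0.27, adjusted p = 0.043 by edgeR), from 11.4, 9.05 and 9.5 CPM to 15.1, 15.5 and 17 CPM. Its partner miR-338-3p, best known from brain, differed by 0.62 (SE 0.35, adjusted p = 0.15). The count of miR-3065-5p was 206% ± 41.9 of that of miR-338-3p in the run 2 controls and 202% ± 9.73 with Tudor-SN siRNA. The count of miR-3065-3p was 383% ± 126 of that of its partner miR-338-5p in the run 2 controls, from 4 to 6 partner counts a library, and 76.9% ± 8.03 with Tudor-SN siRNA. The ratios did not overlap, at 250% to 500% against 70% to 85.7%. miR-3074-5p, antisense to miR-24-3p, stood at 31.3% ± 3.61 and 29.8% ± 5.38 of its partner and did not pass, with a log2 fold change of 0.08 (SE 0.27). miR-3158-5p, complementary to miR-3158-3p, had a run 2 sum of 57 and was not tested.

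Both arms were members for 4 hairpins, and in 3 of them the run 2 groups did not overlap in the balance of the arms. The balance was not counted over all hairpins, and in level the run 2 groups did not overlap for 59% of all tested entries. For miR-3065 the 3p arm held 50.0%, 61.5% and 66.7% of the counts of both arms in the controls and 34.6%, 34.3% and 19.4% with Tudor-SN siRNA. These shares rest on 89 and 184 counts in all, and they combine the rise of the 5p arm with the fall of the 3p arm. For miR-3184 the 3p share was 88.6% ± 0.958 in the controls and 83.2% ± 1.79 with Tudor-SN siRNA (SD, n = 3). For miR-5699, in an intron of DIP2C, it was 37.9% ± 4.46 and 54.1% ± 2.07, from 81 and 136 counts. For miR-4661 it was 24.5% ± 5.77 and 16.6% ± 4.43, and the groups overlapped. Reads of miR-3184 and miR-3065 cannot be told apart from those of their antisense partners miR-423 and miR-338. The shares of these hairpins are therefore shares of assigned counts and may not be their own arm balance. The two-sided exact permutation test of 3 against 3 gave p = 0.1 for the first 3 hairpins, the smallest p it can give, and p = 0.2 for miR-4661. Over the 8 ratios and shares tested this way the adjusted p was 0.13 or more. In run 1 only miR-3184 had over 50 counts in each group, with a 3p share of 72.5% ± 8.44 in the controls and 76.8% ± 3.62 with Tudor-SN siRNA.

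**Figure D4:**
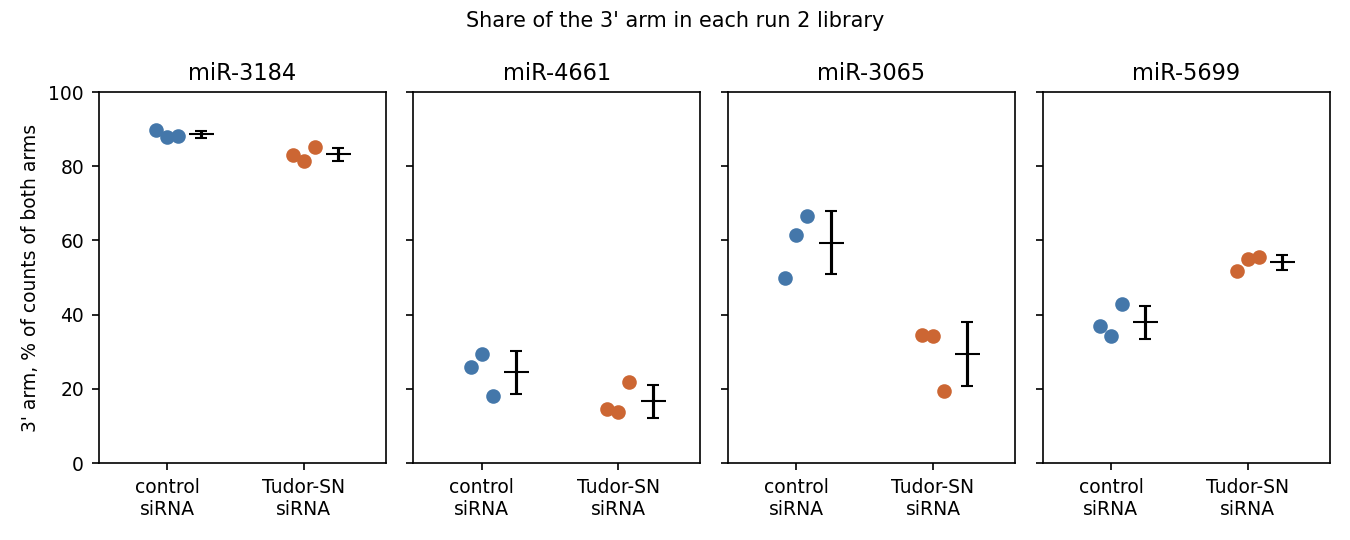
Share of the 3p arm in the counts of both arms of each hairpin, in percent, for the 3 control and 3 Tudor-SN libraries of run 2, with the mean and SD as black bars. The points of miR-3184 and miR-3065 are lower and those of miR-5699 higher with Tudor-SN siRNA, while those of miR-4661 overlap.

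Of 5 members taken from an earlier list of numbers tied to other kinds of noncoding RNA (miR-3607-3p, miR-4485-3p, miR-7704, miR-7974 and miR-7977), all 5 fell in run 2 and the 3 tested in run 1 also fell. The run 2 calls of miR-7704 and miR-7977 held in 2 and 7 of 13 alternatives, as given above. The median log2 fold change of the listed members was -0.76 in run 2 and -0.73 in run 1. Over all entries tested, 26.9% fell in run 2 and 22.8% in run 1. That list had been drawn up with these data known, so its counts are a description and not a test of the list. The annotation used here placed only miR-4485-3p in a ribosomal RNA sequence. With DESeq2 the calls of miR-7704 and miR-7977 in run 2 and of miR-7974 and miR-7977 in run 1 did not pass.

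By number, 4 members in the 3000s rose and 4 fell of 21 tested in run 2, where 24% of all 383 entries rose and 26.9% fell. Of the 4000s, 1 rose and 5 fell of 13. Of the 5000s, none rose and 3 fell of 6 (miR-5683, miR-5699-5p and miR-5701). Of those numbered 6000 or more, none rose and 4 fell of 5 (miR-6724-5p, miR-7704, miR-7974 and miR-7977), and the other was miR-7706. Of 17 tested members with no arm in the name, 7 fell and 1 rose, and over all 61 such entries 34.4% fell and 13.1% rose. Of 12 with 5p in the name, 3 fell and 2 rose, against 24.1% and 29% of all 162 such entries. Of 16 with 3p, 6 fell and 2 rose, against 26.9% and 23.1% of 160.

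CA or UA dinucleotides more than 5 bases from both ends were looked for on the given strand of each mature sequence. They were found in 25 of the 44 members with a sequence (56.8%), in 71.3% of the 296 lower numbered entries with a run 2 sum of at least 60, in 58.3% of the 1229 entries numbered 3000 or more with a sum under 60, and in 62.1% of all 2281 entries with a sequence. In run 2, of 24 tested members with such a dinucleotide 4 rose and 8 fell, and of 17 without 1 rose and 5 fell. Over all tested entries, 26.9% of those with the dinucleotide rose and 24.4% fell, against 18.4% and 31.1% of those without. miR-4787-3p, miR-3184-5p, miR-3065-5p and miR-3605-3p held it and rose. Among the 8 that held it and fell were miR-4485-3p, miR-7977, miR-4677-3p, miR-3662 and miR-5701. A match is a description of the letters and not a site of cutting.

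The median G+C content of the members was 57.7%, against 47.8% in the lower numbered entries under the same rule, 54.5% in the entries numbered 3000 or more with a sum under 60, and 52.2% over all entries. A content of at least 60% was found in 16 of the 44 members (36.4%) and in 37.3% of the 1229 rarer entries with such numbers. It ran from 22.7% in miR-3613-5p to 94.7% in miR-4634. In run 1, of 6 tested members with at least 60% G+C, 4 fell and 1 rose, and none of 5 with less passed. miR-4661-5p, which fell in run 1, had no sequence and is in neither count. Over all tested entries in run 1, 34.2% of those with at least 60% fell, against 18.1% of those with less. In run 2, 6 of 14 such members fell and 2 rose, and 7 of 27 with less fell and 3 rose. Over all run 2 entries the shares that fell were 32.4% and 24.7%. In run 1 every tested member with at least 60% that fell (miR-4634, miR-4485-3p, miR-7974 and miR-7977) also fell in run 2.

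By GENCODE release 29, 26 of the 44 members with a known place lay within a protein-coding gene on the same strand. Of the 23 of these tested in run 2, 7 fell and 2 rose, and of 18 tested outside such genes 6 fell and 3 rose. The shares that fell were 30.4% and 33.3%, against 26.9% over all entries tested. Overlap with a protein-coding exon on the same strand was found for 6 members (miR-4485-3p, miR-7706, miR-7704, miR-3615, miR-4741 and miR-4775), of which 2 fell and 1 rose in run 2. Whole-length matches to other transcripts also occurred for miR-5585-3p, in 4 genes.

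Only 12 of the 48 members were frequent enough to be tested in run 1. Of the 48, 6 had no count in the run 1 controls and 15 had 1 to 3, which together is 43.8%, against 23.1% of the 334 lower numbered entries under the same rule. The rule chose members by their run 2 counts, so their levels in the runs are given as a description only, in pooled CPM without TMM. miR-3158-3p had 2 counts over the run 1 controls (2.71 CPM) and 832 over the run 2 controls (225 CPM). miR-5701 had 13.5 and 217 CPM, miR-4746-5p 6.77 and 129 CPM, miR-7974 176 and 2245 CPM, and miR-3184-3p 102 and 1378 CPM. These were 12.8 to 19.1 times higher in run 2. In the other direction, miR-7977 had 310 CPM in the run 1 controls and 118 CPM in the run 2 controls, and miR-4485-3p had 168 and 55.7 CPM. miR-5000-3p and miR-3938 had 0.200 and 0.249 times their run 1 level in run 2. Over the 27 members with more than 3 control counts in run 1, 17 were higher and 10 lower in run 2, and 3 of the 10 (miR-3065-5p, miR-3613-5p and miR-3662) stood at 0.999 times their run 1 level, or about equal. With the same count, 162 of 257 lower numbered entries were higher and 95 lower.

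**Figure D5:**
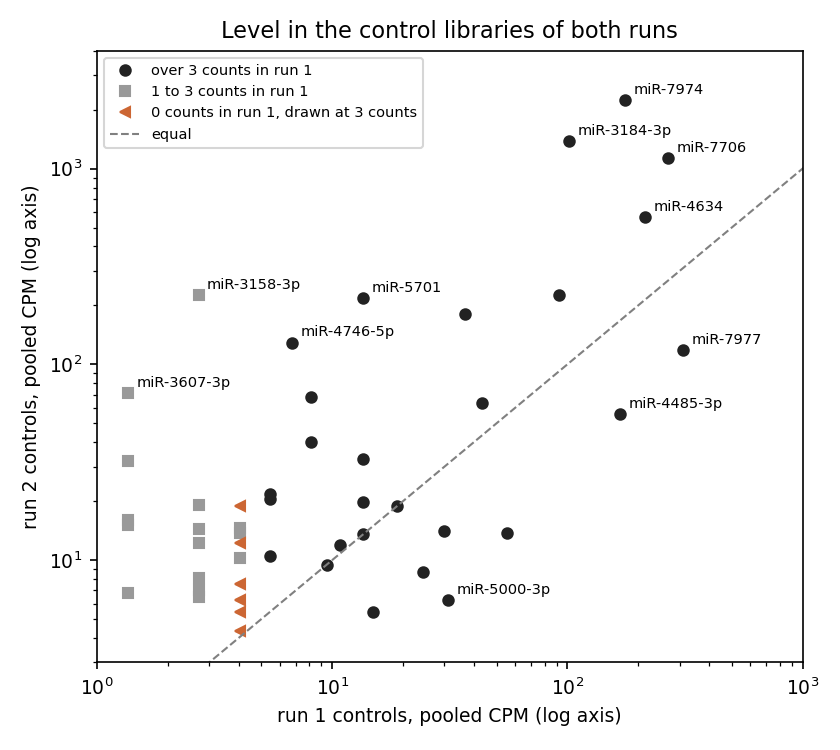
Pooled CPM without TMM of each of the 48 miRNAs in the control libraries of run 1 (horizontal) and run 2 (vertical), on log axes; grey squares had 1 to 3 counts in run 1, and orange triangles had none and are drawn at 3 counts. miR-3158-3p and miR-5701 lie far above the dashed line of equal level, and miR-7977, miR-4485-3p and miR-5000-3p lie below it.

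Whether the siRNA effect differed between runs was tested over all 12 libraries. Of 37 members tested, miR-4786-5p passed with a higher effect in run 2 and none passed with a lower one, against 5.56% higher and 3.44% lower over 378 entries. The split over all entries depended on the scaling. It was 21 higher and 13 lower with TMM over 12 libraries, 10 and 34 with RLE size factors, and 13 and 31 with TMM within each run. The median of all entries in this test was 0.19 on the log2 scale, and it turned to -0.06 with RLE size factors and was 0.03 with TMM within each run. With those scalings miR-7706 (-0.65 and -0.56) and miR-7974 (-0.77 and -0.68) passed as lower, where TMM over 12 libraries gave -0.40 (SE 0.16, adjusted p = 0.11 by edgeR) and -0.51 (SE 0.19, adjusted p = 0.078). Both also passed without any 1 of the 6 run 1 libraries, miR-7706 at -0.92 to -0.72 (adjusted p = 5.6e-05 to 0.0018 by edgeR) and miR-7974 at -1.06 to -0.82 (adjusted p = 3.9e-05 to 0.0021). Without any 1 of the run 2 libraries neither passed, at -0.44 to -0.22 and -0.52 to -0.35. The median over all entries moved the same way. It was -0.32 to -0.21 without a run 1 library and 0.17 to 0.40 without a run 2 library, so these fits do not share a centre. miR-7974 also passed with the replicate block (-0.52, adjusted p = 0.043). For the other members called in both runs, miR-4634, miR-4485-3p, miR-4661-5p and miR-7977, the difference was 0.35 to 0.69 and did not pass.

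In the authors' deposited table, 21 members had an adjusted p in run 1, and 3 were lower and 1 higher at under 0.05. In run 2, 47 members had an adjusted p, and 10 were lower and 3 higher. The authors' calls were not counted over all entries here. All of these had the same call and direction in the tests above. The authors' deposited table gave log2 fold changes of -1.46 and -1.26 for miR-4634 in runs 1 and 2.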

How the data were processed

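Small RNA of 12 HEK293T libraries was sequenced by the authors in 2 runs, with 3 control and 3 Tudor-SN siRNA libraries each. The deposited table gives raw counts per mature miRNA, which served for all tests. The authors also deposited a normalized signal, which is the count divided by a DESeq size factor per library, and RPM values, which were only checked against the counts. The deposited adjusted p-value and log2 fold change of the authors' own comparison are quoted as theirs, per the file headers. Both runs list Bowtie2 in the submitters' processing notes, and run 2 also lists cutadapt, DESeq and DESeq2. Not given in the sources used here are the aligner's settings, the miRNA annotation, the use of strand and how reads with several matches were counted.

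Each run was fitted alone in edgeR 4.0.16 (R 4.3.3), by the quasi-likelihood test with TMM scaling and filterByExpr (minimum count 10, minimum total 15). P-values were two-sided and Benjamini-Hochberg adjusted over all entries tested, with a threshold of 0.05. A fit over 12 libraries tested the difference between runs. CPM levels by library were scaled by TMM, while floors and the control levels pooled to compare runs are plain CPM. Depth ranged from 222452 to 3140214 counts, which sets the floors given in the report. The tests were checked on simulated data. Alternatives were RLE, upper quartile and plain library size scaling, no filter, DESeq2 1.42.0, a replicate block, 1 fit over 12 libraries and leaving out each library.

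Sequences came from RefSeq and host genes from GENCODE 29. The members and lists were chosen with earlier results of these data known. Members named were the 12 with the largest run 2 sums, those past the threshold, those of the lists, hairpins with both arms and those nearest the sum of 60. No paired fit was a main fit.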

Additional observations from a re-analysis of the deposited data

Results flagged for a closer look

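The siRNA effect on miR-4786-5p differed between the runs by 2.91 on the log2 scale, run 2 minus run 1 (SE 0.82, adjusted p = 0.020 by edgeR's interaction test over all entries). Its counts were 3, 5 and 3 in the run 1 controls and 6, 1 and 2 in the run 1 Tudor-SN libraries, or 14.9 ± 3.26 and 3.21 ± 2.05 CPM (SD, n = 3). In run 2 they were 3, 13 and 4 against 26, 28 and 22, or 5.03 ± 2.45 and 10.0 ± 2.65 CPM. The miRNA, from an intron of NDUFA10, did not pass the filter in run 1 alone, and its run 2 log2 fold change of 0.79 (SE 0.38) did not pass (adjusted p = 0.099). The difference no longer passed without run 1 control replicate 2 (2.28), run 1 control replicate 3 (2.54) or run 1 Tudor-SN replicate 2 (2.14), with adjusted p = 0.055 to 0.15. The run 1 values of 1 to 6 counts a library lie near the floor of 3 counts.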

How the results depend on the processing

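In run 1, 3 of the 6 calls held under all alternatives run (miR-4634, miR-4485-3p and miR-4661-5p), and in run 2, 12 of the 21 did. No called member reversed. The members called in run 1 were 1 higher and 5 lower. They became 0 higher with upper quartile scaling, 3 lower with DESeq2, and 0 to 1 higher and 4 to 5 lower with a library left out. In 1 fit over 12 libraries 9 were lower, but its filter over all libraries let 37 members be tested in place of 12. In run 2, 5 were higher and 16 lower. DESeq2 gave 3 higher and 10 lower, 1 fit over 12 libraries gave 10 lower, and leaving out a library gave 3 to 4 higher and 12 to 17 lower. The difference between runs, with 1 higher and 0 lower, became 2 higher with library size alone, 2 lower with RLE and with TMM within each run, and 0 to 4 higher and 0 to 5 lower with a library left out. A sum of 30 would give 85 members, a sum of 120 would give 31, and equal library totals 50. Over all entries, upper quartile scaling moved the run 1 median from -0.05 to -0.24 and the split of calls from 48 higher and 51 lower to 33 and 69. In run 2, 1 fit over 12 libraries moved the split from 92 higher and 103 lower to 100 and 70. For run 1 that fit gave 54 higher and 62 lower of 378 entries, in place of 224 tested in run 1 alone. With DESeq2 the split was 48 higher and 38 lower in run 1, and 88 and 66 in run 2.

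With the replicate number as a block, run 1 gave the members the same 1 higher and 5 lower, run 2 gave 4 higher and 15 lower, and the difference between runs gave 2 higher and 1 lower. Pairing was judged on how each library departed from its group, not on the levels themselves, which were alike across libraries. The correlation of these departures between same-numbered control and Tudor-SN libraries was 0.0816 to 0.149 in run 1 and 0.0443 to 0.0717 in run 2. In run 1 each library correlated best with its own number and in run 2 not all did, so the numbers are not taken to pair the libraries.

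Signs turned only for members that had not passed. In run 1, miR-3184-3p (-0.0264) and miR-3177-3p (-0.0849) turned with upper quartile scaling, and miR-3184-5p with no filter (0.1061) and with DESeq2 (0.0412). With a library left out, the run 1 values of miR-3177-3p ran from -0.083 to 0.2855 and those of miR-3184-5p from -0.1747 to 0.11. In run 2 those of miR-3184-3p ran from -0.012 to 0.0611, miR-5000-3p from -0.049 to 0.5021, miR-3177-3p from -0.0225 to 0.5473, miR-3613-5p from -0.0818 to 0.5825, miR-3074-5p from -0.0142 to 0.2507, miR-4511 from -0.7079 to 0.0776, miR-4741 from -0.438 to 0.2863, miR-4792 from -0.5611 to 0.0341 and miR-5699-3p from -0.0982 to 0.2562. The cause was not tested. In run 1, 36 members did not pass the filter on low counts. Among them were miR-5701, miR-3158-3p and miR-4746-5p, with run 2 sums of 2089, 2027 and 1380. Whether depth limited these members was not tested.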
